A study of Mus musculus with 4 samples.

Results

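Among the nuclei of mouse hippocampus, a small set of GABAergic nuclei carried UMIs of Gad1 or Gad2 with UMIs of Egfr, Hapln1 or Myo3b. Their working name is neurogliaform-like interneurons, and most did not carry all of Egfr, Hapln1 and Myo3b. A UMI is 1 tagged RNA molecule, counted once however often it was read. A nucleus was taken as a member if at most 20% of its UMIs were mitochondrial, if Gad1 and Gad2 together had at least 2 UMIs and at least 3 UMIs per 10000 of all UMIs, if Hapln1, Egfr and Myo3b together had at least 3 UMIs with at least 2 from Hapln1 or Egfr, and if Sst and Pvalb had none. The rule found 295 members among 57350 nuclei, of which 56834 passed the mitochondrial limit and 3130 passed the limits on Gad1 and Gad2 (gated nuclei). The rule reads the same counts that are described here, so members were chosen by the levels of its own 7 genes, which are given as a description. They were left out of the counts when members were compared with other nuclei, but were among the genes fitted between conditions, where none of them passed.

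The nuclei came from 8 pools of hippocampal tissue with 3 male mice in each, and each condition is 1 pool. In the diet experiment, C57BL/6 mice ate vehicle chow or chow with PLX5622, an antagonist of the CSF1 receptor that depletes microglia, and were left undisturbed (Control-Vehicle, Control-PLX5622) or underwent repeated social defeat (RSD) by a CD-1 aggressor (Stress-Vehicle, Stress-PLX5622). In the genotype experiment, mice bred in-house were IL-1R1+/+ without Cre or nIL-1R1-/-, in which Cre under Vglut2 (Slc17a6) removes the interleukin-1 receptor gene Il1r1 from glutamatergic neurons, and were likewise undisturbed (Con-nIL-1R1-/-, Con-IL-1R1+/+) or defeated (Stress-nIL-1R1-/-, Stress-IL-1R1+/+). Nuclei were collected 14 h after the last defeat, and all pools were barcoded together and read in 4 sublibraries, which are technical splits of the same nuclei. The labels give no age, and the study's methods give one only for the bought mice. Only 6 of the members (2.03%) had a UMI of Slc17a6 itself, so the Cre driver was rarely seen in these nuclei at this depth.

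Neurogliaform cells are GABAergic interneurons with small, dense axonal arbors that release GABA as a diffuse cloud, and in the hippocampus they lie mostly in the outer layers where entorhinal and thalamic axons arrive. They come from a pair of embryonic sources, the caudal ganglionic eminence (CGE), whose cells keep Adarb2 and Prox1, and the medial ganglionic eminence (MGE), whose cells keep Lhx6, Sox6 and Satb1. Reln, Ndnf, Lamp5, Kit, Sv2c, Id2, Nos1 and Npy are common markers of the type. Egfr encodes the epidermal growth factor receptor, Hapln1 a link protein that ties hyaluronan to the chondroitin sulfate proteoglycans of the perineuronal matrix, Myo3b a class III myosin, and Fgf13 a cytosolic partner of voltage-gated sodium channels.

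Members varied widely in depth. They had 1241 to 87698 UMIs, with a median of 6733 UMIs and 2549 genes, and at most 3.36% of their UMIs were mitochondrial. By pool, members numbered 54 in Control-Vehicle, 2 in Control-PLX5622, 21 in Stress-Vehicle, 1 in Stress-PLX5622, 81 in Con-nIL-1R1-/-, 41 in Stress-nIL-1R1-/-, 48 in Stress-IL-1R1+/+, with 47 in Con-IL-1R1+/+. The pools with PLX5622 were the shallowest, with medians of 598 UMIs (Control-PLX5622) and 628 UMIs (Stress-PLX5622) over all nuclei kept, and they gave only 3 members. Con-nIL-1R1-/- was the deepest, with a median of 5012 UMIs over its nuclei and 11951 UMIs over its members. Over the whole pools, total UMIs ran from 7646288 in Stress-PLX5622 to 58120628 in Con-nIL-1R1-/-. The 4 sublibraries held 120, 36, 34 and 105 members, and no full barcode was found in more than 1 pool.

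A few nuclei held much of the RNA. The 31 members with 20000 UMIs or more carried 38.9% of the members' UMIs. Of these 31, 20 were in Con-nIL-1R1-/-, where they made up 56.7% of the members' UMIs, 6 were in Con-IL-1R1+/+ (46.5%), 3 in Control-Vehicle (28.4%), 1 in Stress-Vehicle (26.3%) and 1 in Stress-IL-1R1+/+ (9.14%). Most were thus in control pools, and the comparisons with other interneurons, with RSD and by genotype and the share of members were also made without them. In 1 nucleus of Con-nIL-1R1-/- with 46162 UMIs, 148 of the members' 206 Bcas1 UMIs and 135 of their 227 Tns3 UMIs were found, beside 54 UMIs of the myelin gene Mbp, 20 of Enpp6, 23 of Gad1 and 12 of Gad2. Bcas1 and Enpp6 mark newly formed oligodendrocytes. Doublets were not called, and whether this nucleus is one was not tested.

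Of the genes that chose the members, Egfr was the most often seen. It had a UMI in 275 members (93.2%, exact 95% interval 89.7 to 95.8), against 120 for Hapln1 (40.7%, 35.0 to 46.5) and 139 for Myo3b (47.1%, 41.3 to 53.0). By Egfr alone, with neither Hapln1 nor Myo3b, 105 members were chosen, 170 had Egfr with at least 1 of the others, and 20 had no Egfr. The members are therefore mostly Egfr nuclei, and the remaining pair of genes was seen in fewer members each. In 1575 nuclei gated as oligodendrocytes, which should lack these genes, the shares were 2.10% for Egfr, 0.190% for Hapln1 and 0.952% for Myo3b at a median of 1879 UMIs. Gad1 had a UMI in 94.2% of members and Gad2 in 93.9%.

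Levels are given as CPM, the UMIs of a gene summed over the members of a pool, divided by all UMIs of those members and scaled to 1e+06. Egfr stood at 589 CPM in Control-Vehicle, 408 in Stress-Vehicle, 310 in Con-nIL-1R1-/-, 796 in Stress-nIL-1R1-/-, 691 in Stress-IL-1R1+/+, with 411 in Con-IL-1R1+/+. Hapln1 stood at 70.6, 28.7, 77.8, 114, 120 and 84.2 CPM in the same order, and Myo3b at 98.4, 74.7, 105, 138, 136 and 114 CPM. Every one of these values was above that of the remaining gated nuclei of its pool, where Hapln1 lay between 7.24 and 12.7 CPM in these 6 pools, as the rule requires. The rule has a threshold at 3 UMIs of Hapln1, Egfr and Myo3b. The 70 members just inside it, with exactly 3 UMIs, had 116 CPM of Kit, 106 of Sv2c, 779 of Reln, 1707 of Fgf13 and 29.4 of Lamp5. The 166 nuclei just outside, with 2 UMIs, had 62.3, 70.0, 579, 1268 and 24.7 CPM of the same genes, at a like median depth (4644.5 UMIs inside and 4947.5 outside). The 225 members with 4 UMIs or more had 157, 196, 1118, 2060 and 31.9 CPM.

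The members did not share 1 set of markers. Sorted by a UMI of Vip, Lhx6 or Ndnf, a split chosen after the values were seen and so given with no test, 44 members had Vip alone, 61 Lhx6 alone, 62 Ndnf alone, 8 had 2 or 3 of them and 120 had none. Vip encodes a neuropeptide of interneurons that mostly inhibit other interneurons, Lhx6 is the transcription factor of the MGE lineage, and Ndnf encodes a secreted protein of superficial neurogliaform cells. In oligodendrocyte-gated nuclei the shares with a UMI were 0.127% for Vip, 0.635% for Lhx6 and 0.508% for Ndnf. Median depths were 8157.5 UMIs for the Vip members, 8493 for the Lhx6 members, 6972.5 for the Ndnf members, 4960.5 for those with none and 34900 for the 8 with several.

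The Vip members met the rule through Egfr, with next to no Hapln1 or Myo3b. Over all pools together they had 802 CPM of Egfr (exact 95% interval 713 to 900), 5.50 of Hapln1 (0.665 to 19.9) and 8.24 of Myo3b (1.70 to 24.1). The Lhx6 members had 245 CPM of Egfr (212 to 281), 122 of Hapln1 (98.9 to 148) and 103 of Myo3b (82.2 to 128). The Ndnf members had 670 CPM of Egfr (607 to 738), 60.1 of Hapln1 (42.3 to 82.8) and 188 of Myo3b (156 to 226). In each of the 6 pools with at least 10 members, Hapln1 and Myo3b were lower in the Vip members than in both other kinds. These intervals hold counting error alone.

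Genes outside the rule divided the same way. Reln, which encodes the secreted glycoprotein reelin, stood at 49.5 CPM in Vip members, 693 in Lhx6 members and 2844 in Ndnf members. Sv2c, a synaptic vesicle protein, stood at 8.24, 104 and 360 CPM, and Nxph1, a ligand of neurexins, at 124, 2620 and 2863 CPM. Fgf13 stood at 486 CPM in Vip members against 2584 and 2112 CPM in the others. Lamp5, a membrane protein of neurogliaform cells, had no UMI in the Vip members, which allows up to 10.1 CPM, and 37.3 CPM in each of the others. Each of these genes was lower in the Vip members than in both other kinds in 6 of 6 pools. Of the 11 neurogliaform markers other than Ndnf, which made the split, 7 were lower in the Vip members than in both other kinds with all pools together (Lamp5, Reln, Npy, Id2, Sv2c, Gabrd and Dock5), though Npy, Id2 and Gabrd had few UMIs in any kind, and Dock5 had 2 UMIs in Vip and 5 in Lhx6 members (5.50 and 6.21 CPM) with overlapping intervals. The other 4 were not. Nos1 stood at 124 CPM in Vip members, between 51.9 in Ndnf and 184 in Lhx6 members, Kit was lowest in Lhx6 members, and Cplx3 and Egln3 had at most 2 UMIs in a kind. Lamp5, Reln and Sv2c thus go against the working name neurogliaform-like for the Vip members, while Nos1 and Kit were not lowest in them.

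Other genes were highest in 1 kind. Vip members held 437 CPM of Wnt5b, a secreted Wnt ligand, against 13.7 in Lhx6 members and 6.49 in Ndnf members. They also held more of Synpr (1706 against 201 and 258 CPM), which encodes a synaptic vesicle protein, of Grm8 (975 against 92.0 and 169 CPM), a presynaptic glutamate receptor, and of the matrix gene Fbln2 (126 against 3.73 and 4.87 CPM), and Adarb2 stood at 18854 against 2196 and 7054 CPM. Ndnf members held the most Kit, a receptor tyrosine kinase, at 412 CPM against 57.7 in Vip and 18.6 in Lhx6 members, and the most Col19a1 (628 against 93.4 and 148 CPM) and Sema3e (435 against 135 and 51.0 CPM). Lhx6 members held the most Mctp2 (211 CPM against 2.75 in Vip and 11.4 in Ndnf members) and Ttn (225 CPM against 19.2 and 3.25). Each of these orders held in 6 of 6 pools. Of the 298 Ttn UMIs of all members, 94 were in 1 nucleus of Con-nIL-1R1-/- with 23970 UMIs. Sox6, at 203 CPM in Lhx6 members, had 68 of 262 UMIs in the nucleus rich in Bcas1.

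**Figure D1:**
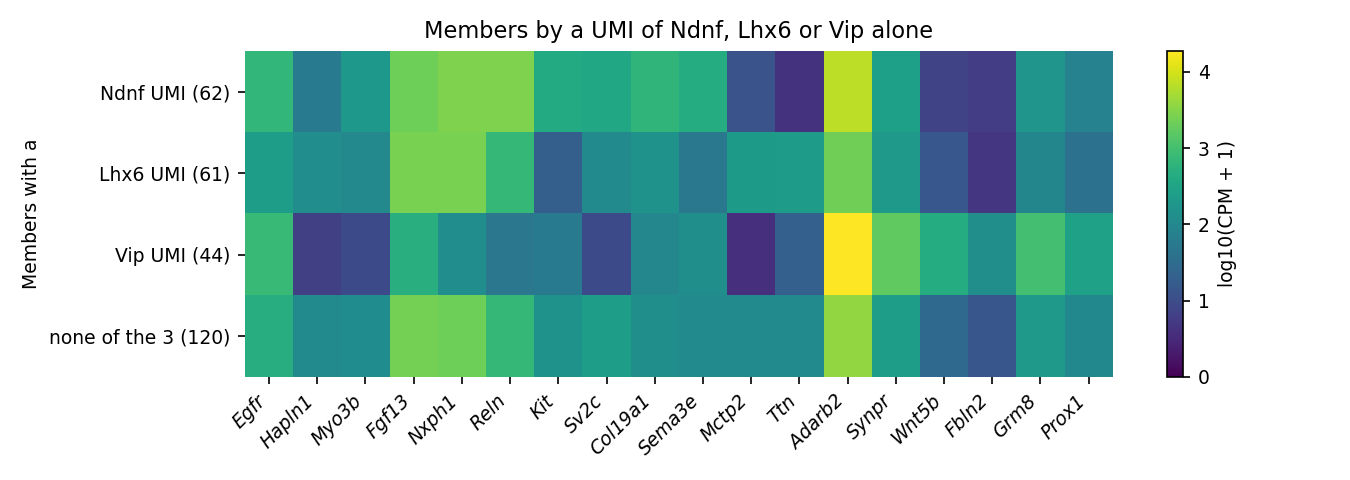
Levels of 18 genes, as log10(CPM + 1) in colour, over members with a UMI of Ndnf alone (62 nuclei), Lhx6 alone (61), Vip alone (44) or none of the 3 (120), all pools together. The 8 members with several are left out. The Vip row is dark at Hapln1, Myo3b, Reln and Sv2c and bright at Adarb2, Synpr, Wnt5b and Grm8, while the Lhx6 and Ndnf rows share Fgf13 and Nxph1 and part at Kit, Mctp2 and Ttn.

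To ask how the members differ from other interneurons, their summed UMIs were compared within pools with those of 95 nuclei with at least 2 UMIs of Sst and Pvalb (Sst/Pvalb nuclei) and with those of 1126 nuclei with at least 3 UMIs of Vip and Adarb2 and none of Lhx6, Sst or Pvalb (Vip/Adarb2 nuclei), all from the same gated nuclei. Sst and Pvalb mark the main MGE classes of dendrite- and soma-targeting interneurons, and Vip and Adarb2 mark CGE classes. The Vip/Adarb2 nuclei were chosen mostly by Adarb2 (11206 ± 2940 CPM, SD, n = 6 pools) and held less Vip than the members on average (29.6 ± 18.3 against 85.2 ± 74.0 CPM). The class thus stands for gated nuclei rich in Adarb2 and not for Vip interneurons. Adarb2 was also seen in nuclei outside the gate, and whether the whole class is of the CGE lineage was not tested. Pools with fewer than 10 nuclei in a class were left out, which left 4 pools against Sst/Pvalb nuclei (those of Control-Vehicle, Con-nIL-1R1-/- and both IL-1R1+/+ conditions) and 6 against Vip/Adarb2 nuclei (all but those with PLX5622). The test was edgeR's quasi-likelihood test with the pool as a block and Benjamini-Hochberg adjustment over all genes fitted, and a gene was called at an adjusted p under 0.05. Genes of either rule were left out of the counts. Without the members of 20000 UMIs or more, 762 of the 936 calls against Sst/Pvalb nuclei and 551 of the 602 against Vip/Adarb2 nuclei remained. Those fits called 929 and 842 genes in all, so some calls were new. Sst/Pvalb nuclei were deeper than members, with medians of 10196 to 20432 UMIs in the 4 pools, and Vip/Adarb2 nuclei had medians of 3619 to 6656 UMIs. The members were part of both comparisons, so the calls of one do not add to those of the other.

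Against Sst/Pvalb nuclei, members were higher in 467 of 6099 genes (7.66%) and lower in 469 (7.69%), or 15.3% in either direction. Of the 12 neurogliaform markers, 8 could be tested and 7 were higher, against 7.66% of all genes, with a median log2 difference of 2.59 over the 8 against -0.0043 over all genes fitted. Reln stood at 1079 CPM ± 251 (SD, n = 4 pools) in members and 311 ± 49.9 in Sst/Pvalb nuclei, and Kit at 158 ± 51.9 and 17.2 ± 22.0 CPM. Sv2c stood at 217 ± 98.6 against 16.6 ± 11.4 CPM, Ndnf at 92.2 ± 39.1 against 5.12 ± 5.60, Lamp5 at 31.5 ± 8.44 against 2.13 ± 2.49, Nos1, which makes nitric oxide, at 124 ± 22.6 against 37.6 ± 32.3, and Dock5 at 40.8 ± 21.4 against 10.3 ± 6.02 CPM. Their log2 differences ran from 1.43 ± 0.31 (SE; Nos1, adjusted p = 0.0026) to 3.17 ± 0.39 (Kit, adjusted p = 9.64e-06). Gabrd, the GABA-A receptor subunit of tonic inhibition, did not pass (16.4 ± 7.89 against 18.8 ± 10.8 CPM, log2 -0.04, adjusted p = 0.974). Fgf13 stood at 2051 ± 288 CPM in members and 558 ± 174 in Sst/Pvalb nuclei and was higher (log2 1.88 ± 0.18, adjusted p = 4.82e-07). Vip, the only gene tested of the list of Vip and cholecystokinin interneurons, was higher too. It stood at 48.2 ± 33.7 CPM in members and had no UMI in the Sst/Pvalb nuclei of these pools.

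Lineage genes were split, and their counts stand beside 7.66% of all genes higher and 7.69% lower. Sst/Pvalb nuclei were chosen by markers of the main MGE classes and members for having neither. Lineage genes can differ by that choice alone, and its part was not tested. Of the CGE list, 3 of 4 tested were higher, Adarb2 (5828 ± 1622 against 483 ± 360 CPM), Prox1 (98.5 ± 27.7 against 29.5 ± 7.48) and the cannabinoid receptor Cnr1 (117 ± 36.5 against 21.0 ± 6.19). Of the MGE list, 2 of 5 tested were lower, Sox6 (77.0 ± 38.9 against 393 ± 49.2 CPM, log2 -2.29 ± 0.21) and Satb1 (42.3 ± 9.18 against 212 ± 46.6, log2 -2.36 ± 0.20). Lhx6 itself did not pass, with 35.5 ± 9.40 CPM in members and 66.8 ± 20.8 in Sst/Pvalb nuclei (log2 -0.67 ± 0.27, adjusted p = 0.112), nor did Nxph1 (2114 ± 435 against 2340 ± 282 CPM, adjusted p = 0.53). As described for the kinds, Lhx6 was found in 67 members (22.7%). Adarb2 had a UMI in 278 (94.2%), but also in 32.1 to 70.6% of the nuclei outside the gate, by pool, so a UMI of Adarb2 alone does not mark a lineage here.

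The genes with the smallest p that went the same way in every pool, 8 in each direction, were led on the higher side by Vcan, the proteoglycan versican, which Hapln1 binds. Vcan stood at 141 CPM in Control-Vehicle, 272 in Stress-IL-1R1+/+, 206 in Con-IL-1R1+/+ and 266 in Con-nIL-1R1-/-. In Sst/Pvalb nuclei of these pools it lay between 3.75 and 10.9 CPM. The groups did not overlap, and the log2 difference was 4.65 ± 0.28 (adjusted p = 5.04e-09). Vcan lies at chr13:89803431-89890814 on the minus strand and Hapln1 at chr13:89686581-89759950 on the plus strand (GRCm39), with 43480 bases between them. The others were the protocadherin Dchs2 (log2 3.50), Adarb2 (3.68), the calcium channel subunit Cacna2d1 (3.11), the guidance ligand Sema3e (2.74), the transcription factor Nfix (2.63), the deacetylase Hdac9 (1.85) and the noncoding RNA Dlx6os1 (1.81). Lower were Tll1, a metalloprotease (23.0 ± 6.32 against 318 ± 105 CPM, log2 -3.75 ± 0.21), Oprd1, the delta opioid receptor (-3.27), Il1rapl2 (-3.17), Tmem44 (-3.05), Plcxd3 (-3.01), the GDNF receptor Gfra1 (-2.91), Rnf144b (-2.47) and Kctd8 (-2.26), an auxiliary subunit of GABA-B receptors.

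Ion channel and receptor genes went both ways, and their counts stand beside 7.66% of all genes higher and 7.69% lower. Of 18 potassium channel genes tested, 7 were higher and 5 lower, and the lower ones held Kcnc1 (272 ± 16.4 against 560 ± 174 CPM) and Kcnc2 (771 ± 133 against 2102 ± 84.5 CPM), the Kv3 channels of fast-spiking cells, while Kcnq5 (1280 ± 98.8 against 369 ± 251 CPM) was among the higher. Of 22 glutamate receptor genes, 5 were higher and 5 lower. Higher were among others the kainate receptor subunit Grik1 (2254 ± 582 against 930 ± 278 CPM) and the NMDA receptor subunit Grin2a (3578 ± 266 against 1565 ± 389), and lower the AMPA receptor subunits Gria3 (402 ± 108 against 1202 ± 96.7) and Gria4 (1189 ± 152 against 2366 ± 375). Of 13 GABA receptor genes 5 were higher and none lower, among them Gabra5 (84.2 to 112 CPM against 18.2 to 41.2 CPM). Of 12 neuromodulator receptor genes, 5 were higher and 2 lower. The alpha-1A adrenergic receptor Adra1a (360 ± 87.0 against 58.2 ± 22.1 CPM) and the alpha-7 nicotinic receptor Chrna7 (257 ± 29.8 against 80.1 ± 11.9 CPM) were among the higher, and the muscarinic receptor Chrm2 (49.6 ± 35.4 against 195 ± 84.4 CPM) and Oprd1 were the lower.

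In the perineuronal matrix list, 2 of 5 genes tested were higher and 2 lower outside the rule's own Hapln1. All counts of this paragraph stand beside 7.66% of all genes higher and 7.69% lower. Vcan and Ptprz1, a receptor phosphatase that is also a proteoglycan (199 ± 54.6 against 51.6 ± 11.2 CPM), were higher, while brevican (Bcan, 22.1 ± 14.9 against 118 ± 48.8 CPM) and tenascin-R (Tnr, 686 ± 262 against 1244 ± 180 CPM) were lower. Of 3 ligands of the EGF receptor family tested, 1 was higher, the neuregulin Nrg1 (929 ± 218 against 408 ± 194 CPM). Of 10 adaptor and feedback genes tested, 1 was higher, the feedback inhibitor Errfi1 (26.6 ± 7.68 against 6.93 ± 5.04 CPM, log2 1.56 ± 0.49, adjusted p = 0.0366), and 1 lower, the adaptor Shc3 (log2 -0.63 ± 0.17, adjusted p = 0.0128). The Errfi1 call was lost in 4 alternatives. In both directions, 1 of 10 is near the share of all genes (7.66% higher and 7.69% lower). Of 7 glucocorticoid genes tested, 4 were higher, among them Zbtb16 (868 ± 247 against 271 ± 91.2 CPM) and the receptor Nr3c1 (102 ± 33.4 against 54.9 ± 23.4 CPM). Errfi1 is counted again among these 4, and the Nr3c1 call was lost in 2 alternatives. Of 3 interleukin-1 genes tested Il1rap, the co-receptor, was higher (277 ± 26.2 against 71.3 ± 13.5 CPM). In the astrocyte list both genes tested, Slc1a2 and Slc1a3, were higher in members. The summed level of that list was 213 CPM over all members, of which Slc1a2 gave 168, and its part in these results was not tested.

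**Figure D2:**
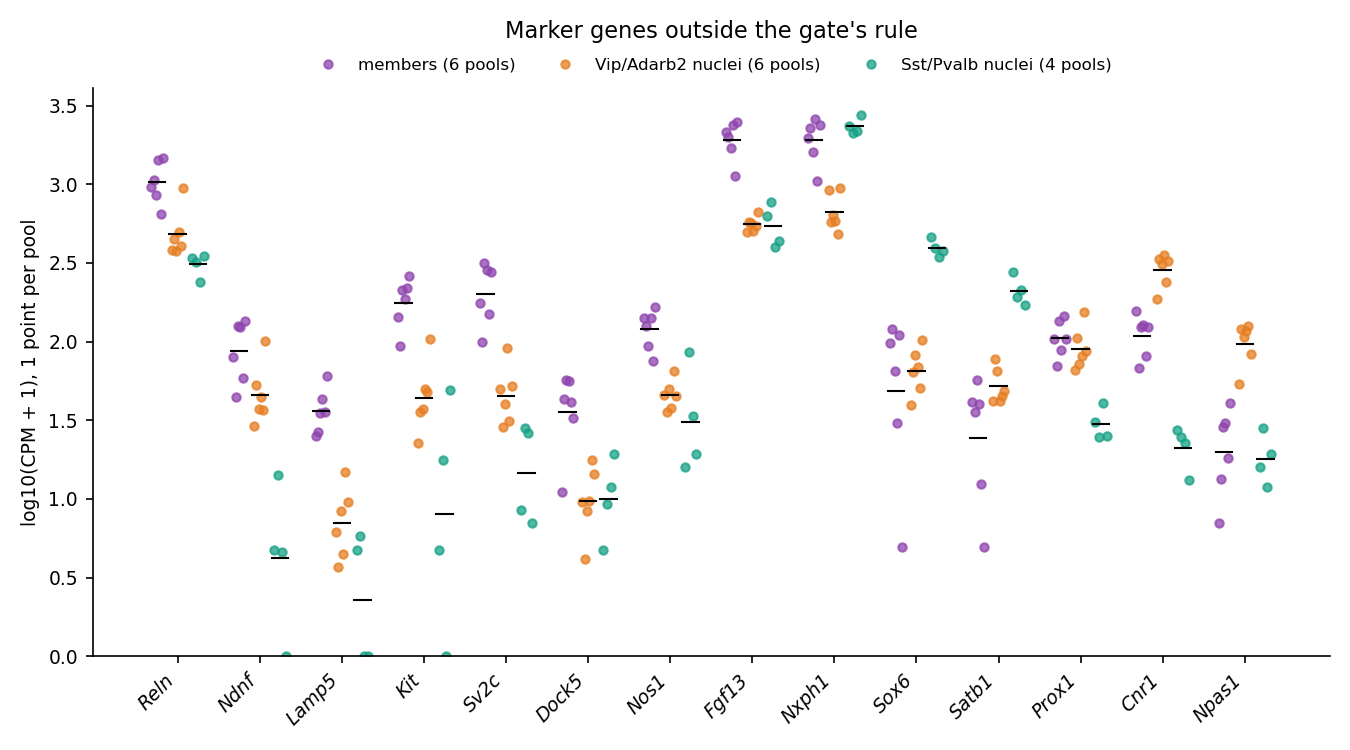
Levels of 14 genes outside the gate's rule, as log10(CPM + 1), in members and Vip/Adarb2 nuclei of 6 pools and in Sst/Pvalb nuclei of 4 pools, with 1 point per pool and a bar at the mean of the plotted values. All points of Sv2c, Lamp5 and Fgf13 in members lie above all points of both other classes, and those of Kit do so apart from 1 point, while Sox6 and Satb1 lie highest in Sst/Pvalb nuclei and Cnr1 and Npas1 in Vip/Adarb2 nuclei.

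Against Vip/Adarb2 nuclei, members were higher in 314 of 8324 genes (3.77%) and lower in 288 (3.46%), or 7.23% in either direction. This split moved with the filter on low counts, to 262 higher and 437 lower with no filter. Of the neurogliaform markers, 9 could be tested and 8 were higher, all but Gabrd, with a median log2 difference of 1.89 against -0.0074 over all genes fitted. Lamp5 stood at 36.6 ± 12.9 CPM (SD, n = 6 pools) in members and 6.83 ± 4.08 in Vip/Adarb2 nuclei (log2 2.60 ± 0.29, adjusted p = 3.45e-06). Kit stood at 185 ± 59.5 against 48.3 ± 28.1 CPM, Sv2c at 215 ± 86.3 against 47.8 ± 22.6, Dock5 at 39.1 ± 17.0 against 9.62 ± 4.73, Nos1 at 123 ± 33.7 against 45.3 ± 10.5 and Reln at 1070 ± 324 against 507 ± 217 CPM. Ndnf (93.3 ± 38.8 against 49.2 ± 26.0 CPM, log2 0.90 ± 0.22, adjusted p = 0.0129) and Id2 (14.3 ± 7.64 against 4.05 ± 3.68 CPM, adjusted p = 0.0148) were higher in 5 of 6 pools. The Ndnf call was lost in 6 alternatives, among them no block (log2 0.88, adjusted p = 0.154). Gabrd did not pass (18.3 ± 7.95 against 10.7 ± 3.70 CPM, adjusted p = 0.171).

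Some genes of the CGE lineage were lower in members. The Vip/Adarb2 nuclei were chosen by Vip and Adarb2 and for no Lhx6, and the members were not. Lineage genes, Nxph1 among them, can differ by that choice alone, and its part was not tested. Npas1, a transcription factor of CGE cells, stood at 22.0 ± 12.3 against 100 ± 27.6 CPM (log2 -2.40 ± 0.23), Cnr1 at 112 ± 32.3 against 291 ± 65.1 CPM (-1.40 ± 0.18), and Htr3a, the serotonin-gated channel, at 6.19 ± 3.63 against 13.6 ± 4.21 CPM (-1.60 ± 0.48, adjusted p = 0.0466). These 3 were the lower ones among 5 CGE genes tested, beside 3.46% of all genes, and Prox1 did not pass (107 ± 28.1 against 93.0 ± 32.0 CPM). The Htr3a call was lost in 3 alternatives and that of Cnr1 in 1. The vesicular glutamate transporter gene Slc17a8 had 2 UMIs in the members of the 6 pools, both in Con-nIL-1R1-/-, against 19.8 ± 6.09 CPM in Vip/Adarb2 nuclei, and was lower. It was 1 of 2 genes tested in the list of Vip and cholecystokinin interneurons, and the other did not pass. Members that carried Vip were among those tested, and without them 547 of the 602 calls remained among 735 calls in all.

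The 8 genes with the smallest p on the higher side were the phosphodiesterase Pde11a (493 ± 61.7 against 110 ± 26.8 CPM, log2 2.23 ± 0.13, adjusted p = 8.68e-10), the orexin receptor Hcrtr2 (153 ± 48.3 against 29.3 ± 9.18 CPM, 2.39 ± 0.15), Fgf13 (1969 ± 501 against 557 ± 60.5 CPM, 1.81 ± 0.12), Cacna2d1 (1256 ± 276 against 385 ± 49.7 CPM), Sv2c, Adra1a (414 ± 136 against 153 ± 56.2 CPM), Nxph1 (1979 ± 577 against 689 ± 192 CPM) and Nyap2 (726 ± 116 against 265 ± 63.3 CPM). On the lower side were the synaptotagmin Syt6 (22.1 ± 10.6 against 167 ± 53.0 CPM, log2 -3.05 ± 0.20), Npas1, Cadps2 (159 ± 51.4 against 798 ± 320 CPM), Epb41l4a, the netrin-G1 gene Ntng1 (166 ± 102 against 656 ± 151 CPM), the cation channel Trpm3 (354 ± 102 against 1199 ± 358 CPM), Sgcd and Pdzrn3. Each went the same way in 6 of 6 pools. Sv2c, Adra1a, Nxph1, Fgf13 and Cacna2d1 stood higher in members than in Vip/Adarb2 nuclei, and of these Nxph1 did not pass against Sst/Pvalb nuclei.

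Of Egfr's relatives, 1 could be tested. Erbb4, the neuregulin receptor of interneurons, stood at 6525 CPM in Control-Vehicle, 5250 in Stress-Vehicle, 8302 in Con-nIL-1R1-/-, 9950 in Stress-nIL-1R1-/-, 9234 in Stress-IL-1R1+/+, with 7113 in Con-IL-1R1+/+. In Vip/Adarb2 nuclei it lay between 2227 and 4921 CPM, with no overlap, and it was higher in members (log2 1.13 ± 0.12, adjusted p = 1.39e-06). Against Sst/Pvalb nuclei it did not pass (7793 ± 1212 against 7145 ± 816 CPM, log2 0.11 ± 0.15, adjusted p = 0.71). Nrg2 (373 ± 15.6 against 288 ± 13.4 CPM, log2 0.39 ± 0.09, adjusted p = 0.00779) and Errfi1 (27.1 ± 6.01 against 11.1 ± 2.28 CPM, log2 1.25 ± 0.24) were higher, as 1 of 4 ligands tested and 1 of 11 adaptor and feedback genes tested, both counts beside 3.77% of all genes. The Nrg2 call was lost in 3 alternatives. Over the 4 ligands the median log2 difference was -0.27, and over the 11 adaptor and feedback genes it was 0.05. In the matrix list Vcan alone was higher of 5 tested (211 ± 50.1 against 54.8 ± 15.0 CPM), beside the same 3.77% of all genes.

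Receptor lists again split, and their counts stand beside 3.77% of all genes higher and 3.46% lower. Of 14 GABA receptor genes, 5 were higher and none lower. Among them were Gabra5, Gabrb2 (579 ± 70.9 against 328 ± 32.4 CPM), Gabrg3 (2637 ± 585 against 1159 ± 223) and the GABA-B subunit Gabbr2 (1140 ± 124 against 626 ± 92.8). Of 22 glutamate receptor genes 2 were higher, Grik1 (2141 ± 579 against 1176 ± 342 CPM) and Grin2a (3677 ± 322 against 2111 ± 223), and 5 were lower, among them Grik3, Grm3 and Grid1. Of 16 neuromodulator receptor genes, 3 were higher and 6 lower. Chrna7 (260 ± 24.3 against 163 ± 26.5 CPM), the serotonin receptor Htr2a (67.2 ± 14.9 against 42.6 ± 4.24) and Adra1a were higher, while Htr2c (75.6 ± 24.5 against 167 ± 51.9), Chrm2 (36.6 ± 34.3 against 152 ± 138), Chrm3, Htr3a, Oprd1 and Cnr1 were lower. Of 20 potassium channel genes 3 were higher, among them Kcnh7 (1083 ± 251 against 611 ± 76.6 CPM), and 4 lower, among them Kcnc2 (642 ± 233 against 1109 ± 250 CPM). Of 6 interleukin-1 genes tested 1 was higher, Il1rap (283 ± 43.7 against 154 ± 19.1 CPM). Of 7 glucocorticoid genes tested 2 were higher, Nr3c1 (92.5 ± 30.6 against 61.8 ± 9.27 CPM) and Errfi1. The call of Htr2a was lost in 6 alternatives, with DESeq2 among them (log2 0.62, adjusted p = 0.1), and that of Nr3c1 in 4.

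The other cell types whose RNA these gates could hold were read from their marker lists. Over all members, the 7 excitatory markers summed to 699 CPM, of which Camk2a gave 630, and in Vip/Adarb2 nuclei they summed to 672 CPM and in Sst/Pvalb nuclei to 561 CPM. The 6 oligodendrocyte markers summed to 320 CPM, the 6 astrocyte markers to 213 and the 6 microglial markers to 53.0 CPM. The oligodendrocyte sum was 291 CPM in Control-Vehicle, 350 in Stress-Vehicle, 342 in Con-nIL-1R1-/-, 162 in Stress-nIL-1R1-/-, 204 in Stress-IL-1R1+/+, with 439 in Con-IL-1R1+/+. The medium spiny neuron list summed to 1830 CPM, but Pde10a gave 1773 of it, and Drd1 and Adora2a had no UMI. Vcan, which is also a marker of oligodendrocyte precursors, gave 226 of the 238 CPM of that list, and Olig1 had no UMI. Their part in the differences was not tested.

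The study compared defeated with undisturbed mice, so the share of members was read in each pair of pools. Of gated nuclei, members made up 9.76% in Control-Vehicle (exact 95% interval 7.42 to 12.5) and 8.71% in Stress-Vehicle (5.47 to 13.0), 1.96% in Control-PLX5622 (0.238 to 6.90) and 0.855% in Stress-PLX5622 (0.0216 to 4.67). They made up 13.7% in Con-nIL-1R1-/- (11.1 to 16.8), 9.62% in Stress-nIL-1R1-/- (6.995 to 12.8), 7.57% in Con-IL-1R1+/+ (5.61 to 9.94) and 10.0% in Stress-IL-1R1+/+ (7.47 to 13.0). The share was lower after RSD in 3 of 4 pairs and higher in IL-1R1+/+, and the intervals of all 4 pairs overlapped. The log2 ratio of stress to control averaged -0.37 over the 4 pairs (exact sign-flip permutation test, two-sided, p = 0.375, where 4 pairs cannot pass 0.05). Of all nuclei kept, the ratio averaged -0.67 (same exact test, p = 0.25), and the counting intervals did not overlap in the vehicle pair (0.637%, 0.479 to 0.831, against 0.286%, 0.177 to 0.437) and the nIL-1R1-/- pair (1.24%, 0.989 to 1.54, against 0.678%, 0.487 to 0.919). When each nucleus was first thinned to 1000 UMIs, 3 and 1 members were left in the vehicle pair, 2 and 5 in IL-1R1+/+, 2 and 2 in nIL-1R1-/- and none with PLX5622, too few to read. The averages of the 3 pairs were then 0.35 of gated nuclei and 0.32 of nuclei kept. The rule needs several UMIs, and the pools differed in depth. Both PLX5622 pools, with the fewest UMIs per nucleus, had the lowest shares, and Con-nIL-1R1-/-, with the most, the highest. Between these, Con-IL-1R1+/+ (median 3098.5 UMIs) stood below Stress-Vehicle (1325.5 UMIs) in the share of gated nuclei and above it in the share of nuclei kept (0.622% against 0.286%). The part of depth in the shares was not tested. Fewer nuclei of this kind and less RNA per nucleus cannot be told apart here.

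**Figure D3:**
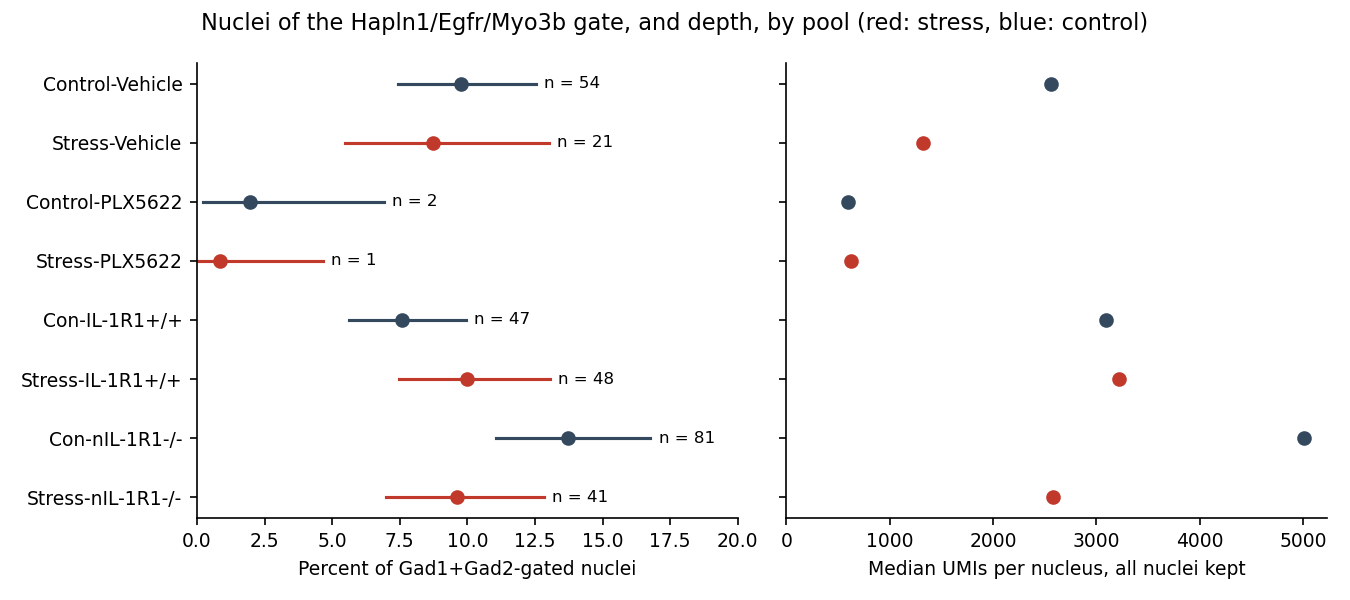
Left, members as a percent of gated nuclei in each of the 8 pools with exact 95% intervals and the number of members. Right, the median UMIs per nucleus over all nuclei kept, with control pools in blue and stress pools in red. The 2 PLX5622 pools are lowest on both sides and Con-nIL-1R1-/- is highest on both.

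To ask which genes changed with RSD inside the members, the 6 pools with at least 10 members were fitted as 3 pairs (vehicle, IL-1R1+/+, nIL-1R1-/-). Of 5805 genes, 1 was higher (0.0172%) and 1 lower (0.0172%), or 0.0345% in either direction, by edgeR's quasi-likelihood test, and 313 had an unadjusted p under 0.05. DESeq2 called none, with 78 at an unadjusted p under 0.05. The calls were Vip, higher, and Col11a1, lower, and no gene was called without the members of 20000 UMIs or more, where Col11a1 fell under the filter on low counts.

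Vip stood at 42.8 CPM in Control-Vehicle (exact 95% interval 26.1 to 66.1) and 97.7 in Stress-Vehicle (56.9 to 156), at 28.1 in Con-IL-1R1+/+ (15.3 to 47.1) against 97.3 in Stress-IL-1R1+/+ (65.6 to 139), and at 24.6 in Con-nIL-1R1-/- (16.9 to 34.8) against 221 in Stress-nIL-1R1-/- (167 to 286). All 3 stress pools were above all 3 control pools. The fitted log2 difference was 2.23 ± 0.34 (adjusted p = 0.0247). These levels rest on few UMIs, 20 and 17 in the vehicle pair, 14 and 30 in IL-1R1+/+ and 32 and 56 in nIL-1R1-/-. In Stress-Vehicle, 14 of the 17 were in 1 nucleus. With the member richest in Vip left out of every pool, a choice made after the values were seen and given with no test, Vip stood at 24.1 and 19.1 CPM in the vehicle pair, 18.5 and 73.6 in IL-1R1+/+ and 17.9 and 165 in nIL-1R1-/- (control and stress). The vehicle pair then went the other way, and the groups overlapped. Without members of 20000 UMIs or more the difference was 1.58 (adjusted p = 0.298), without the nIL-1R1-/- pair 1.50 (adjusted p = 0.507), with DESeq2 2.14 (adjusted p = 0.0850) and without the pair as a block 2.22 (adjusted p = 0.119).

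The share of members with a Vip UMI was 11.1% in Control-Vehicle and 19.0% in Stress-Vehicle, 14.9% and 18.8% in the IL-1R1+/+ pools, and 12.3% and 26.8% in the nIL-1R1-/- pools. It was higher after RSD in 3 of 3 pairs, by 8.76 percentage points on average (exact sign-flip permutation test, p = 0.25, the smallest that 3 pairs allow). Those members held 3.33 and 4.25 Vip UMIs each in the vehicle pair, 2.00 and 3.33 in IL-1R1+/+ and 3.2 and 5.09 in nIL-1R1-/-. Without the richest member of each pool these were 2.2 and 1.0, 1.5 and 2.75, and 2.56 and 4.1 UMIs, so that the higher content in Stress-Vehicle came from 1 nucleus. The share with an Lhx6 UMI went the other way, from 24.1% to 14.3%, from 21.3% to 14.6% and from 34.6% to 9.76% (3 of 3 pairs, exact sign-flip permutation test, p = 0.25). That with an Ndnf UMI went both ways, from 35.2% to 28.6%, from 17.0% to 16.7% and from 19.8% to 31.7%. The share chosen by Egfr alone was higher after RSD by 8.52 percentage points on average (3 of 3 pairs, same exact test, p = 0.25). In the nIL-1R1-/- pair the median depth of members was also lower after RSD, 5702 against 11951 UMIs. A change in the makeup of the members and a change of Vip within a kind cannot be told apart from these sums.

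In the remaining gated nuclei, which the rule did not take, Vip was also higher in each stress pool than in its control. It stood at 5.01 CPM in Control-Vehicle and 22.8 in Stress-Vehicle, at 6.73 in Con-IL-1R1+/+ against 11.8 in Stress-IL-1R1+/+, and at 8.61 in Con-nIL-1R1-/- against 18.3 in Stress-nIL-1R1-/-. With PLX5622 there was no Vip UMI in the control pool and 13.2 CPM in the stress pool, where all 4 UMIs were in 1 nucleus. The difference was 11.4 CPM on average over the 4 pairs (4 of 4 higher), and the exact sign-flip permutation test gave the smallest p that 4 pairs allow, which does not reach 0.05. Without the richest nucleus of each pool Vip was still higher in the other 3 pairs (3.34 and 14.9, 5.70 and 10.1, and 7.75 and 16.02 CPM), and both PLX5622 pools had no UMI.

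Vip is a gene whose promoter is known to respond to cyclic AMP through a site bound by CREB. Vip lies at chr10:5589186-5599956 on the plus strand (GRCm39). The 250 bases before its start, at chr10:5638968-5639217 on the plus strand of GRCm38.p6 (RefSeq), are shown because Vip was the gene called higher, with the letters TGACGT, the core of the CREB site, in capitals.
Vip: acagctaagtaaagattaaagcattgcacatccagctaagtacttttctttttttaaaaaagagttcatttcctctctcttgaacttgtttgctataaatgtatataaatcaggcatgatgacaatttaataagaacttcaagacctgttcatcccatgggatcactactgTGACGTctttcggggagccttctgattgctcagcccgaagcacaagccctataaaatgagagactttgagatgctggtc
The first of these letters lies 79 bases before the start site. TGACGT was found on either strand in 2125 of 32851 promoter windows of this length (6.47%), and was not found in that of Col11a1. A match is a description of the sequence and no measure of binding.

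Col11a1, a fibrillar collagen chain, stood at 30.0 CPM in Control-Vehicle and 17.2 in Stress-Vehicle, at 152 in Con-IL-1R1+/+ against 16.2 in Stress-IL-1R1+/+, and at 62.4 in Con-nIL-1R1-/- against 7.88 in Stress-nIL-1R1-/-. All stress pools were below all control pools, and the fitted log2 difference was -2.62 ± 0.45 (adjusted p = 0.0498). In Con-IL-1R1+/+, 37 of its 76 UMIs came from 1 nucleus of 57419 UMIs, and in Con-nIL-1R1-/- 20 of 81 came from 1 nucleus. The stress pools held 3, 5 and 2 UMIs. Col11a1 is no marker of these nuclei, with 60.0 CPM in members against 61.0 CPM in oligodendrocyte-gated nuclei. In the remaining gated nuclei it was lower after RSD in the IL-1R1+/+ and nIL-1R1-/- pairs and higher in the vehicle and PLX5622 pairs. The call was lost with DESeq2, without the block, without nuclei that carry excitatory UMIs (log2 -2.04, adjusted p = 0.117) and without the IL-1R1+/+ pair (log2 -1.98, adjusted p = 0.471).

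**Figure D4:**
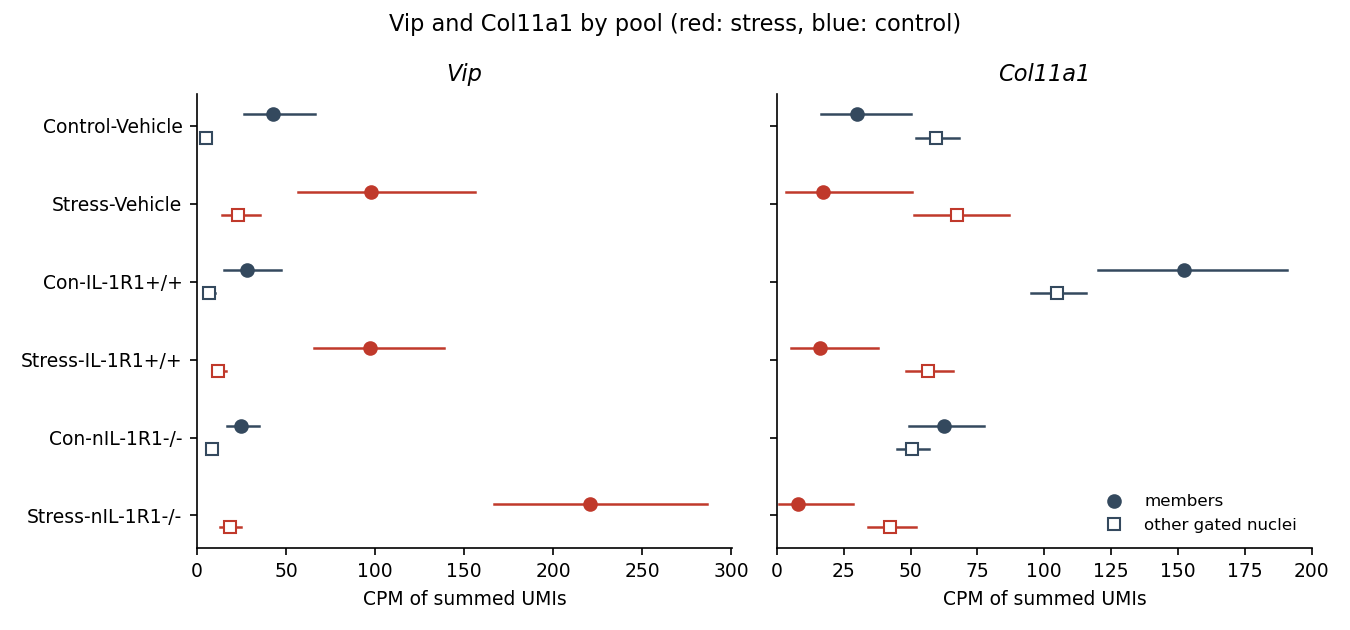
Vip (left) and Col11a1 (right) in CPM of summed UMIs in the 6 pools tested, with exact 95% Poisson intervals, in members (filled circles) and the other gated nuclei (open squares), control pools in blue and stress pools in red. Vip in members is between 24.6 and 42.8 CPM in control pools and between 97.3 and 221 in stress pools, where 1 nucleus gave 14 of the 17 UMIs of Stress-Vehicle, and Col11a1 in members is below 20 CPM in each stress pool.

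No other gene passed. Wnt5b, which was highest in the Vip members, stood at 89.9 and 103 CPM in the vehicle pair, 46.1 and 156 in IL-1R1+/+ and 27.7 and 181 in nIL-1R1-/- (control and stress), and did not pass (log2 1.65 ± 0.35, adjusted p = 0.152). Fkbp5, a glucocorticoid target gene, stood at 49.2 and 115, 36.1 and 51.9, and 31.6 and 82.7 CPM in the same order, above its control in each pair, and did not pass (log2 1.10 ± 0.31). Tafa1 (log2 -1.54 ± 0.30, adjusted p = 0.138) and Bcas1 (-2.82 ± 0.60, adjusted p = 0.155) did not pass either, and 148 of the 206 Bcas1 UMIs were those of the single nucleus described. All 3 were called in other settings, with no filter on low counts (adjusted p = 0.00015 for Wnt5b, 1.8e-07 for Tafa1 and 7.9e-05 for Bcas1) and without the vehicle pair, where 192 genes were called. None of the 8 neurogliaform markers tested passed, although all 8 had a log2 difference above 0, with a median of 0.43 against 0.01 over all genes. Other lists leaned as far with no call, the CGE list up (4 of 4 above 0, median 0.52), the MGE list down (1 of 5 above 0, median -0.53) and the oligodendrocyte list down (0 of 4 above 0, median -0.60), and their part in the lean of the neurogliaform markers was not tested. None of the 13 GABA receptor, 22 glutamate receptor, 18 potassium channel and 7 glucocorticoid genes tested passed in either direction.

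Between nIL-1R1-/- and IL-1R1+/+, no gene of 5805 passed over the 2 control and 2 stress pools (edgeR, 129 at an unadjusted p under 0.05, and DESeq2, 0 called and 18 at an unadjusted p under 0.05). Some genes were called in other settings, such as a pool left out, no filter on low counts or a stricter limit on Gad1 and Gad2. The deletion is aimed at glutamatergic neurons, and the members held 20 UMIs of Il1r1 in 20 nuclei (6.63 CPM, 4.05 to 10.2), too few to compare by genotype. Il1rap had 835 UMIs in 228 members. Il1b and Il1rn had none, which allows up to 1.22 CPM each. The diet contrast was not run, since the PLX5622 pools held 2 members and 1 member.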

How the data were processed

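The authors aligned reads to mm39 with the Parse pipeline and deposited whole-number counts (UMIs) of 56748 genes per nucleus, with no scaling. The annotation release is not stated, and 56017 identifiers were found in GENCODE vM39, the source of the GRCm39 coordinates. Seurat 4.1.1 is named in the submitters' processing notes. Each nucleus took its pool from the deposited table of nuclei, by the name of its sample there.

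The members, gene lists and comparison classes were chosen with earlier results of these data known. UMIs were summed per pool and class, and classes with under 10 nuclei in a pool were left out. Sums were fitted with edgeR 4.0.16 (TMM, filterByExpr, quasi-likelihood test, R 4.3.3), with the pool, or the pair of pools that share diet or genotype, as a block. DESeq2 1.42.0 was an alternative. Pools of 3 mice are the replicates, so no test was made between single pools. Intervals are exact (Poisson for CPM, Clopper-Pearson for shares, scipy 1.17.1) and cover counting error only. Doublets were not called. The scripts were tested on simulated data. Only 4 pools entered against Sst/Pvalb nuclei.

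Genes named are those of the rule, those of 30 fixed lists, and in each comparison the 8 genes (5 for RSD and genotype) lowest in p on either side, if their adjusted p was under 0.05 and every pool or pair went 1 way. Wnt5b, Tafa1, Bcas1, Tns3 and the genes that part the kinds of members were chosen after their values were seen. Alternatives were another tool, filter or gate, thinning to 1000 UMIs, no block, and each pool or pair left out. Leaving out members with a Vip UMI or of 20000 UMIs or more, using all other gated nuclei as the comparison class and using no minimum of nuclei were added after seeing the data. A few genes of the lists are counted but not reported by name here.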

Additional observations from a re-analysis of the deposited data

Results flagged for a closer look

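Pools were examined for a value far from the others of their group in 103 groups, and 6 stood apart, where chance alone gives about 1 in 20. The share of members among gated nuclei in Stress-PLX5622 was 0.855%, from 1 member, against 8.71 to 10.0% in the other 3 stress pools. In the members of Stress-IL-1R1+/+, Grik1 (3119 CPM) and Chrna7 (302 CPM) lay far above the other pools of the comparison with Sst/Pvalb nuclei. In the same pool Sgcd (772 CPM) and Ntng1 (360 CPM) lay far above the other pools of the comparison with Vip/Adarb2 nuclei, where the other 5 pools held 415 to 523 CPM of Sgcd and 51.2 to 154 CPM of Ntng1. Slc17a8 in the members of Con-nIL-1R1-/- (1.54 CPM, from 2 UMIs) was the only value above 0 among the 6 pools. Each lies in a single pool of 3 mice.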

How the results depend on the processing

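Calls against other nuclei are given beside the genes fitted, which include genes of the rules. Against Sst/Pvalb nuclei, 936 of 6106 were called, 492 of 6106 with DESeq2 and 262 of 1034 after thinning to 1000 UMIs. With 1 pool left out, the calls ran from 573 of 4988 (without Con-nIL-1R1-/-) to 856 of 5810. Against Vip/Adarb2 nuclei, 602 of 8332 were called, 369 of 3669 with a stricter limit on Gad1 and Gad2 and 334 of 2136 after thinning. With no replicate block 319 of 6870 were called, and with 1 pool left out 435 of 8171 to 601 of 9301. More were called without members of 20000 UMIs or more (842 of 7074), without nuclei with excitatory UMIs (755 of 7843) and without members with a Vip UMI (735 of 7995). Against all other gated nuclei 890 of 9958 were called, and 410 of the 602 were among them. With RSD, 2 genes were called, 0 with DESeq2, 0 with no replicate block, 0 without members of 20000 UMIs or more, 6 without nuclei with excitatory UMIs, 7 without members with a Vip UMI, 11 with no minimum of nuclei, 17 with no filter on low counts, 18 with the stricter gate, of which none was Vip or Col11a1, and 192 without the vehicle pair. With 1 pair left out the count ran from 1 to 192. For genotype, 0 were called, 10 with no filter, 4 with the stricter gate, 1 without nuclei with excitatory UMIs, 1 without members with a Vip UMI, 5 with no minimum of nuclei, and 2 to 28 with 1 pool left out. The cause of these shifts was not tested.

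The mean log2 ratio of the share changed sign after thinning, which left 1 to 5 members in each of 6 pools, to 0.32 of nuclei kept and 0.35 of gated nuclei. It ran from -1.03 to -0.51 and from -0.62 to -0.09 with 1 pair left out, and without the pairing p was 0.6 and 0.657.

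Named genes that were not called changed sign as follows. Nxph1 against Sst/Pvalb nuclei was 0.075 without nuclei with excitatory UMIs, 0.059 after thinning, 0.080 without members with a Vip UMI, 0.062 without members of 20000 UMIs or more and 0.12 with no minimum of nuclei. Gabrd was 0.20 to 0.30 without 1 of 2 pools. Against Vip/Adarb2 nuclei, Sox6 was -0.14 with DESeq2, -0.68 with the stricter gate, -0.083 without nuclei with excitatory UMIs, -0.20 without members of 20000 UMIs or more and -0.10 to 0.50 with 1 pool left out. Against all other gated nuclei Sox6 was -1.65 and was called lower (edgeR's quasi-likelihood test, adjusted p = 0.00016). Against Vip/Adarb2 nuclei, Prox1 was -0.16 after thinning and -0.17 without members with a Vip UMI. With RSD, Il1rap was -0.011 with the stricter gate, -0.014 without nuclei with excitatory UMIs and -0.075 without members of 20000 UMIs or more, and Synpr was -0.19 without members with a Vip UMI. Of 50 genes named against Sst/Pvalb nuclei, Errfi1, Gria4, Kcnc1, Nos1 and Nr3c1 lost their call in at least 1 alternative, and of 47 against Vip/Adarb2 nuclei Cnr1, Htr2a, Htr2c, Htr3a, Id2, Il1rap, Ndnf, Nr3c1 and Nrg2 did. Vip and Col11a1 each lost theirs under RSD in 4 distinct fits that gave a value for the gene. Neither was called with the stricter gate, and Col11a1 was not called without members of 20000 UMIs or more. The stricter gate against Sst/Pvalb nuclei, genotype without the genotype pairs and all alternatives of the diet contrast could not be fitted.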

Other observations

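Several further gene groups were counted in the same fits, where 7.66% of all genes were higher and 7.69% lower against Sst/Pvalb nuclei, and 3.77% and 3.46% against Vip/Adarb2 nuclei. Of 9 sodium channel genes and partners tested against Sst/Pvalb nuclei, 3 were higher in members (Scn3a, Fgf13 and Fgf14) and 2 lower (Scn1a and Fgf12), and of 11 tested against Vip/Adarb2 nuclei 1 was higher (Fgf13) and 2 lower (Scn3a and Fgf12). Of the activity-regulated genes, Nr4a1 was higher of 2 tested against Sst/Pvalb nuclei and none of 4 passed against Vip/Adarb2 nuclei. Of 3 Cajal-Retzius genes tested, Reln and Ndnf were higher in both comparisons, and they are neurogliaform markers too. Car10 was lower against Sst/Pvalb nuclei (338 ± 82.1 against 487 ± 80.5 CPM), and none of the list was lower against Vip/Adarb2 nuclei. Of the dentate granule list, Prox1 and Maml2 were higher and Trpc6 lower of 3 tested against Sst/Pvalb nuclei, and Calb1 was lower of 5 tested against Vip/Adarb2 nuclei. None of the 4 oligodendrocyte genes tested against Sst/Pvalb nuclei and of the 5 tested against Vip/Adarb2 nuclei passed. The endothelial list summed to 16.2 CPM over all members and could not be tested.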
